A study of Homo sapiens with 12 samples.

Results

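The alkaline phosphatase genes ALPP, ALPG, ALPI and ALPL were described in AsPC-1 cells, an established line of pancreatic adenocarcinoma cells. These 4 genes are the human members of their family and stand among 57820 gene IDs in the count files. They were chosen by their family membership and because ALPG was lower with an siRNA against ARNT in hypoxia, so the values of that contrast are given as a description and without a test. RNA with a poly(A) tail was sequenced in 4 groups of 3 replicates (A, B and C). The groups were siControl in normoxia (21% O2), siARNT in normoxia, siControl in hypoxia (1% O2 for 24 h) and siARNT in hypoxia. All cells were transfected with an siRNA by lipid reagent, and RNA was taken 48 h after transfection. The siControl cells received a scrambled siRNA. All libraries come from 1 cell line and from wells seeded in triplicate, so p-values measure only the spread between such wells.

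Alkaline phosphatases are zinc enzymes that sit on the outer face of the plasma membrane, held by a glycosylphosphatidylinositol (GPI) anchor, and remove phosphate from small molecules and from lipopolysaccharide. ALPP encodes the placental enzyme, ALPG (formerly ALPPL2) the germ cell enzyme, ALPI the intestinal enzyme and ALPL the tissue-nonspecific enzyme of bone, liver and kidney, which degrades pyrophosphate and takes phosphate off the circulating form of vitamin B6. ALPP and ALPG are known as antigens that some tumours make outside their normal tissues. ARNT is the partner of the HIF alpha subunits, which drive the response to low oxygen, and of the aryl hydrocarbon receptor (AHR), which responds to aromatic ligands.

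ALPP, ALPG and ALPI are neighbours on chromosome 2 in the band 2q37, all on the plus strand, and ALPL lies on chromosome 1. The windows from 250 bases before to 50 bases after the start of each chromosome 2 gene are shown because ALPP and ALPG moved alike in these libraries and ALPI was almost silent beside them. They are RefSeq sequences of GRCh38.p14, plus strand, at chr2:232378501-232378800 for ALPP, chr2:232406594-232406893 for ALPG and chr2:232455903-232456202 for ALPI. In ALPP and ALPG, capitals mark the 46 bases of each window that differ from the other of the pair or have no counterpart there. In ALPI, capitals mark the letters ACGTG.
ALPP: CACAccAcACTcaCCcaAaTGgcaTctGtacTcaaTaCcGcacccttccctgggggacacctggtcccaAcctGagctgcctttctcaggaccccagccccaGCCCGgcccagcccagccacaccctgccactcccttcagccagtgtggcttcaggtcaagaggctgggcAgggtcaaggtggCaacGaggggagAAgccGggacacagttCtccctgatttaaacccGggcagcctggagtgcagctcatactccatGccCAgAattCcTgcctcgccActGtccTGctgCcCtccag
ALPG: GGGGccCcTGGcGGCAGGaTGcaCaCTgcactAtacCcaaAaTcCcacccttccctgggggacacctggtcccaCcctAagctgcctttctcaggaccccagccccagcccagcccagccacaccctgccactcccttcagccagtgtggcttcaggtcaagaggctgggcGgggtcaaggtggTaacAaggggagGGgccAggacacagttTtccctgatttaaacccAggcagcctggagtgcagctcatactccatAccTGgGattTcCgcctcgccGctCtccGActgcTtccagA
ALPI: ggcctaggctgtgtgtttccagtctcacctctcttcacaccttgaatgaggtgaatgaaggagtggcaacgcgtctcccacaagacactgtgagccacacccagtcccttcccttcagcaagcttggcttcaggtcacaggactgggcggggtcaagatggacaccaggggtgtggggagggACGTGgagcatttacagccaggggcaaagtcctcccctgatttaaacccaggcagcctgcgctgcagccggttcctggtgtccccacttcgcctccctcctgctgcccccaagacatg

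Aligned end to end, the ALPP and ALPG windows were identical in 82.7% of columns, against 56.0% for ALPP with ALPI and 57.3% for ALPG with ALPI. The letters TTTAAA, a match to a TATA-like element, began 30 bases before the start in ALPP and ALPG (position -30) and at position -28 in ALPI. They occur on either strand in 12.2% of 35116 RefSeq promoter windows of the same length. The core letters of the HIF element, ACGTG, occurred on neither strand in the ALPP and ALPG windows and once in ALPI, at position -68, while 21.4% of all windows hold them. The core letters of the AHR element, GCGTG, occurred in none of the 3 windows and in 36.5% of all windows. Such a match or its absence describes these windows alone, and elements farther away were not searched.

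The coding sequences of ALPP and ALPG (1605 and 1596 bases) were identical in 97.3% of aligned columns, with 35 mismatches. ALPI (1584 bases) matched them in 88.5% and 88.8%, and ALPL (1572 bases) in 63.5% and 63.2%. A read that fits both ALPP and ALPG cannot be given to 1 of them. Reads were 125 bases long per the labels, and of the 125-base windows of the reference transcript, 9.8% in ALPP (279 of 2847) and 11.8% in ALPG (279 of 2369) also occur exactly in the other gene or its neighbours. ALPI shared 0 of its 2426 windows. These shares count exact matches among the genes of the locus and ALPL only.

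The total of gene counts ran from 38.5 to 84.3 M per library. ARNT, the target of the siRNA, stood in normoxia at 62.4 ± 1.53 CPM (counts per M gene counts, with TMM scaling) with siControl against 13.4 ± 0.56 with siARNT, and in hypoxia at 69.1 ± 3.81 against 15.3 ± 1.04 (SD, n = 3). Among the markers of ductal epithelium, KRT8, KRT18, EPCAM and KRT19 had means of 1720, 1470, 900 and 458 CPM over the 12 libraries, whereas KRT7 had 1.75. The line is therefore epithelial by its keratins. Of 9 fibroblast markers COL1A1, COL1A2, FAP and THY1 stayed at or under 0.219 CPM in every library, but LUM had a mean of 449 CPM. Some libraries stood apart in how their levels leaned toward GC-rich genes. The slope of a library's log2 level, against the mean of all libraries, on the GC content of genes was 0.424 per 10 percentage points in replicate B of normoxia siARNT and 0.238 in replicate C of hypoxia siARNT, and between -0.205 and 0.12 in the other 10 libraries. The members are GC-rich (ALPP 61.6%, ALPG 62.5%, ALPI 62.2% and ALPL 59.6%, against a median of 47.7% for tested genes), so results are given with and without these libraries where they rest on them.

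ALPP, the placental enzyme, was present in all 12 libraries. Replicates A, B and C held 12.2, 14.7 and 12.4 CPM of it in normoxia siControl and 7.62, 12.0 and 6.69 CPM in normoxia siARNT. In hypoxia it was 22.7, 38.4 and 19.0 CPM in siControl and 3.12, 3.14 and 5.70 CPM in siARNT. The 4 groups did not overlap: hypoxia siControl was highest, then normoxia siControl, normoxia siARNT and hypoxia siARNT. This order, here and for ALPG below, includes the hypoxia libraries that the choice of members used, so it is a description. The share of all tested genes whose groups separate in this way is not given here. The step between the normoxia groups was narrow, since the highest siARNT library (12.0 CPM) lay close to the lowest siControl library (12.2 CPM).

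ALPG, the germ cell enzyme, took the same order of groups, again with no overlap. Replicates A, B and C held 10.3, 11.4 and 10.2 CPM of it in normoxia siControl and 2.83, 5.80 and 2.84 CPM in normoxia siARNT. In hypoxia it was 20.7, 35.3 and 14.5 CPM in siControl and 1.10, 1.83 and 2.58 CPM in siARNT. The spread within a group was widest in hypoxia siControl, where the highest library held 2.43 times the level of the lowest. It was narrowest in normoxia siControl, at 1.11 times. These are bulk samples, in which fewer expressing cells and less RNA per cell cannot be told apart.

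ALPI, the intestinal enzyme, held 64 counts in all 12 libraries together. Replicates A, B and C had 5, 1 and 7 counts in normoxia with siControl and 3, 10 and 5 with siARNT, and in hypoxia 6, 11 and 8 with siControl and 2, 4 and 2 with siARNT. All 4 groups overlapped at least 1 other group, and the means ran from 0.0601 CPM in hypoxia siARNT to 0.166 CPM in hypoxia siControl. ALPL, the tissue-nonspecific enzyme, was at 0 in 11 libraries and had 1 count in the remaining one, replicate B of normoxia siARNT. A count of 0 allows up to 3 counts, which is 0.0351 to 0.073 CPM depending on the library. Neither gene passed the filter on low counts, so 2 of the 4 members were tested.

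**Figure D1:**
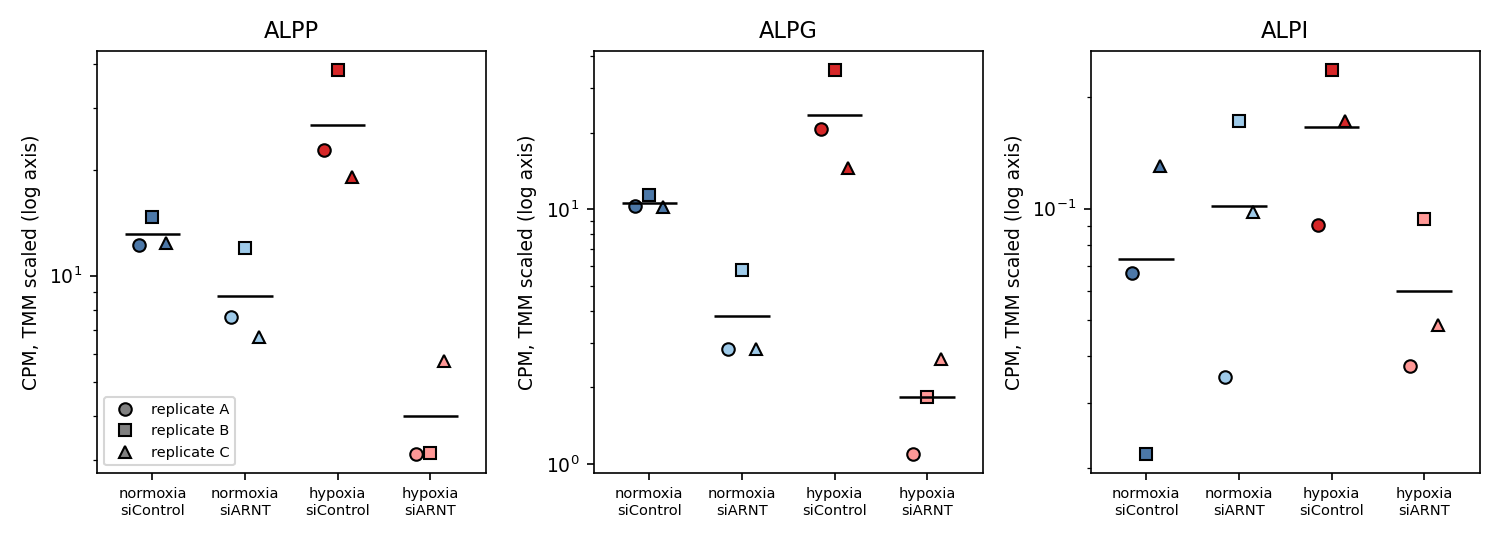
Level of ALPP, ALPG and ALPI in each library (CPM with TMM scaling, log axis whose range differs between panels); circles, squares and triangles are replicates A, B and C and bars are group means. ALPP and ALPG are highest in hypoxia siControl (means 26.7 and 23.5 CPM) and lowest in hypoxia siARNT (3.98 and 1.83 CPM), while ALPI stays at or under 0.236 CPM in all libraries; ALPL, with 1 count in all, is not drawn.

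Between genes, levels were compared per kilobase of exon. In normoxia siControl ALPP stood at 4.28 ± 0.456 CPM per kilobase and ALPG at 4.26 ± 0.258 (SD, n = 3), a difference smaller than the spread. In hypoxia siControl they stood at 8.73 ± 3.37 and 9.43 ± 4.28, again within the spread. With siARNT, ALPP was the more abundant, at 2.87 ± 0.931 against 1.53 ± 0.687 in normoxia and at 1.30 ± 0.485 against 0.736 ± 0.298 in hypoxia. ALPI was far below both, with group means from 0.0228 to 0.0631 CPM per kilobase.

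The first comparison asked whether the reduction of ARNT at 21% O2, in libraries that the choice of members did not use, changes these genes. By the protocol, wells were divided between oxygen levels after transfection. The normoxia libraries may therefore share transfections with the hypoxia libraries that the choice used. ALPG fell from 10.6 ± 0.644 to 3.83 ± 1.71 CPM (SD, n = 3), a log2 fold change of -1.47 (SE 0.374, adjusted p = 0.0198, edgeR's quasi-likelihood test with Benjamini-Hochberg adjustment over 16999 genes). All 3 siARNT libraries were below all 3 siControl libraries. ALPP had 13.1 ± 1.39 CPM in siControl and 8.78 ± 2.85 CPM in siARNT, and its log2 fold change of -0.58 did not pass the test (SE 0.306, edgeR adjusted p = 0.185). So 1 of the 2 tested members was called, and it was lower; over all tested genes 10.8% were called lower and 9.42% higher.

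The call for ALPG rests close to its threshold. The adjusted p by edgeR ran from 0.0501 to 0.0538 when any 1 of the 3 siControl libraries, or replicate A or C of siARNT, was left out, with log2 fold changes from -1.52 to -1.29, and it was 0.00354 (-1.91) without replicate B of siARNT, the library with the steepest GC slope. With an offset for GC content in each library the log2 fold change was -2.05 for ALPG (adjusted p = 5.02e-06) and -1.08 for ALPP, which then also passed (adjusted p = 4.45e-05).

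Hypoxia in siControl cells went with higher levels of both genes. ALPG stood at 23.5 ± 10.7 CPM in hypoxia against 10.6 ± 0.644 CPM in normoxia, a fitted log2 difference of 1.15 (SE 0.362), and ALPP at 26.7 ± 10.3 against 13.1 ± 1.39 CPM, a log2 difference of 1.03 (SE 0.305). In both genes every hypoxia library was above every normoxia library. These values share the hypoxia siControl libraries with the contrast that chose the members and carry no test. Replicate B of hypoxia siControl set much of their size: without it the log2 difference was 0.75 for ALPG and 0.69 for ALPP. Over all tested genes hypoxia in siControl called 10.4% higher and 14.9% lower.

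In siARNT cells the same change of oxygen went the other way. ALPG was at 1.83 ± 0.742 CPM in hypoxia against 3.83 ± 1.71 CPM in normoxia (log2 difference -1.07, SE 0.402), and ALPP at 3.98 ± 1.48 against 8.78 ± 2.85 CPM (log2 difference -1.14, SE 0.320). Every hypoxia library was below every normoxia library in both genes, by a small margin for ALPG (2.58 against 2.83 CPM). Without replicate B of normoxia siARNT the log2 difference of ALPG was -0.65, and without replicate A of hypoxia siARNT it was -0.76. The log2 difference of ALPP was -0.85 without the former library. Leaving out replicate C of hypoxia siARNT, the other library with a steep GC slope, gave -1.4 for ALPG and -1.49 for ALPP. These values share libraries with the contrast that chose the members and carry no test either. In this comparison 2.21% of all tested genes were called higher and 1.89% lower.

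In hypoxia, the contrast by which the members were chosen, ALPG was lower in siARNT than in siControl by a log2 difference of -3.69 (SE 0.414) and ALPP by -2.75 (SE 0.330). Without replicate C of hypoxia siARNT the value of ALPG was -4.02. For the difference between the 2 oxygen responses the fitted values were -2.22 (SE 0.541) for ALPG and -2.17 (SE 0.442) for ALPP. Over all tested genes 14.4% were called higher and 14.7% lower with siARNT in hypoxia. The 4 comparisons share groups in pairs, so their values stand side by side here and are not independent of one another. ALPI, fitted without the filter on low counts, had a log2 fold change of 0.36 with siARNT in normoxia (SE 0.624, edgeR adjusted p = 0.831). It had 1.09 with hypoxia in siControl (SE 0.589, edgeR adjusted p = 0.331) and -0.69 with hypoxia in siARNT (SE 0.691, edgeR adjusted p = 0.742). With siARNT in hypoxia it had -1.42 (SE 0.651, edgeR adjusted p = 0.183). None was called, and at this depth a difference in either direction was not detectable.

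Counts of ALPG were also set against those of ALPP in the same library, a ratio that no scaling of libraries touches. ALPG made up 45.8%, 43.6% and 45.1% of the counts of the pair in replicates A, B and C of normoxia siControl and 47.7%, 47.9% and 43.3% in hypoxia siControl. With siARNT the share was 27.1%, 32.6% and 29.8% in normoxia and 26.0%, 36.8% and 31.2% in hypoxia. All 6 siARNT libraries were below all 6 siControl libraries, while normoxia and hypoxia libraries of the same siRNA overlapped. This separation includes the hypoxia libraries in which ALPG was chosen for its fall, so it is a description. The share of other gene pairs that separate in this way is not given here. The 95% Wilson interval was widest in replicate B of hypoxia siARNT (30.6 to 43.5%, from 78 ALPG and 134 ALPP counts) and covers counting error only.

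In normoxia the ratio of ALPG to ALPP counts was 0.426 ± 0.056 in siARNT and 0.813 ± 0.037 in siControl (SD, n = 3). The exact two-sided permutation test gave p = 0.1, the smallest value that 3 against 3 allows. Leaving out each library in turn moved the difference of -0.387 only between -0.415 and -0.359. In hypoxia the ratio was 0.462 ± 0.115 in siARNT and 0.865 ± 0.0878 in siControl, given without a test because ALPG was chosen in that contrast.

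**Figure D2:**
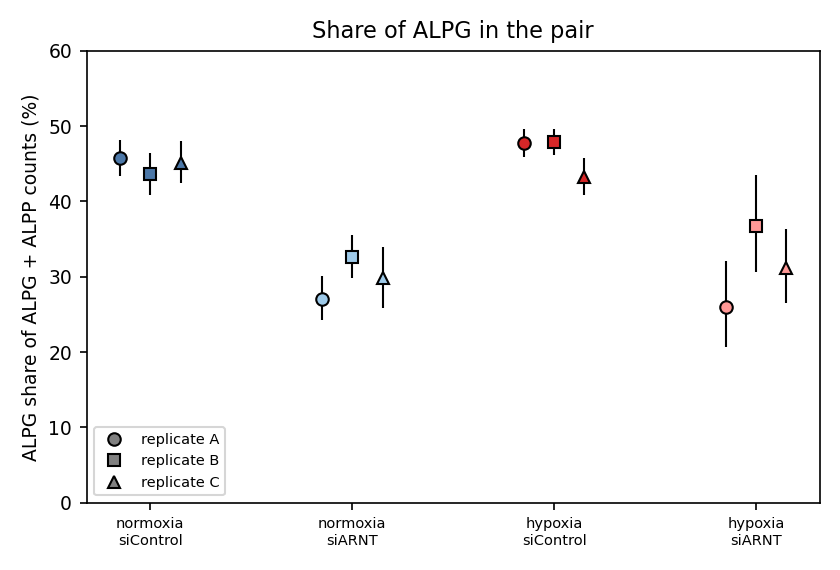
Share of ALPG in the summed counts of ALPG and ALPP (%, linear axis from 0) in each library, with 95% Wilson intervals as bars; circles, squares and triangles are replicates A, B and C. The siControl libraries lie between 43.3% and 47.9% and the siARNT libraries between 26.0% and 36.8%, at either oxygen level.

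The neighbours of the 3 genes were read next. GENCODE 29 places ALPP at chr2:232378534-232382889, ALPG at chr2:232406843-232410714 and ALPI at chr2:232456123-232460032 in GRCh38, so that ALPG starts 28.3 kb and ALPI 77.6 kb beyond the start of ALPP. Within 200 kb of the 3 genes lie 20 gene IDs of the count files, of which 9 held 15 counts or fewer over all libraries and 8 were tested. The silent ones include ECEL1 (1 count), CHRND (1 count), and CHRNG and PRSS56 (0 counts). RefSeq puts the start of ALPP downstream of the GENCODE 29 start, inside the GENCODE gene.

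ECEL1P2 and ECEL1P1 are pseudogenes of the endopeptidase gene ECEL1 on the minus strand. ECEL1P2 (chr2:232385750-232387457) lies between ALPP and ALPG, and ECEL1P1 (chr2:232415818-232419816) lies just beyond ALPG. Neither overlaps an alkaline phosphatase gene, and no 125-base window of theirs occurs in one.

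ECEL1P2 had 1.60, 1.73 and 2.00 CPM in replicates A, B and C of normoxia siControl and 0.971, 0.758 and 0.785 CPM in normoxia siARNT. In hypoxia it had 1.87, 1.80 and 1.89 CPM in siControl and 0.642, 0.398 and 0.365 CPM in siARNT. It fell with siARNT in normoxia by 1.07 on the log2 scale (log2 fold change -1.07, SE 0.186, edgeR adjusted p = 0.00252), with no overlap between the groups. With hypoxia in siControl its groups overlapped, with a log2 difference of 0.06 (SE 0.178), where those of ALPP and ALPG did not.

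ECEL1P1 had 0.833, 1.16 and 0.965 CPM in normoxia with siControl and 0.608, 0.913 and 0.471 CPM with siARNT. In hypoxia it had 2.13, 2.77 and 1.44 CPM with siControl and 0.359, 0.328 and 0.463 CPM with siARNT. Its groups overlapped in normoxia, where the log2 fold change of -0.55 did not pass (SE 0.284, edgeR adjusted p = 0.168; with the GC offset -1.03, adjusted p = 0.000653). Hypoxia siControl lay above every other library and hypoxia siARNT below, with log2 differences of 1.11 (SE 0.265) for hypoxia in siControl and -2.46 (SE 0.305) for siARNT in hypoxia.

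The expressed genes at either edge of the window did not take this order. DIS3L2, an exonuclease gene upstream of ALPP, had group means in normoxia of 25.1 CPM with siControl and 27.4 CPM with siARNT, and in hypoxia of 20.8 and 24.4 CPM. EIF4E2, a cap-binding protein gene downstream, had 110 and 118 CPM in normoxia and 96.9 and 109 CPM in hypoxia, siControl first. With siARNT in normoxia neither passed the test (DIS3L2 0.13, edgeR adjusted p = 0.234; EIF4E2 0.11, adjusted p = 0.12). TIGD1 was lower in that comparison (-0.49, SE 0.119, edgeR adjusted p = 0.0153), but it overlaps EIF4E2 on the other strand and whether the counting used strand is not stated. The pseudogene NRBF2P6, with 145 counts in all, gave -0.07 (edgeR adjusted p = 0.933). Of the 8 tested genes of the window, ALPG, ECEL1P2 and TIGD1 were called lower with siARNT in normoxia and 0 were called higher, beside 10.8% and 9.42% of all tested genes.

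**Figure D3:**
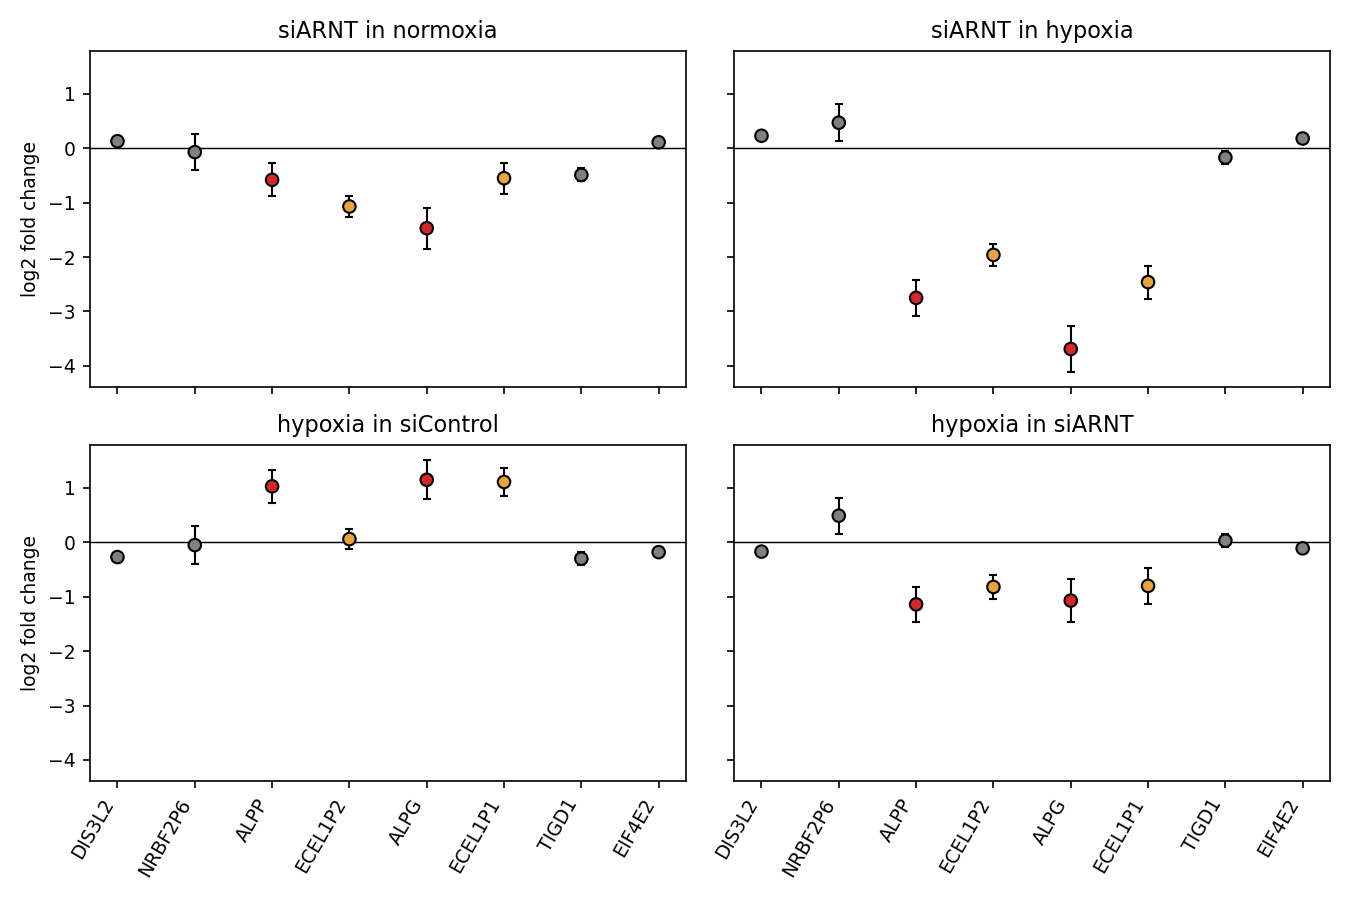
Log2 fold changes (points) with standard errors (bars) of the 8 tested genes of the 2q37 window, in chromosome order and not to scale, for 4 comparisons; red marks ALPP and ALPG, orange the ECEL1 pseudogenes and grey the other genes. The 4 coloured genes lie between -3.69 and -1.96 for siARNT in hypoxia, and the 4 grey genes between -0.17 and 0.47.

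Likeness to ALPP and ALPG was ranked by Pearson's r of log2 CPM over the 12 libraries, among 12659 genes whose mean was 1 CPM or more. These libraries share their groups and their GC slopes, so r is a description. The genes most like ALPP were its neighbour ECEL1P1 (0.980), ALPG (0.976), JPH2 (0.975), EXOC3 (0.971) and AOPEP (0.970). Those most like ALPG were BMP4 (0.995), a secreted growth factor of the TGF beta family, FXYD3 (0.989), a regulator of the sodium pump, SYBU (0.987), TANC1 (0.986) and EXOC3 (0.982), a subunit of the exocyst. ALPP ranked 9 and ECEL1P1 ranked 17 (0.968) for ALPG, and ECEL1P2 ranked 373 (0.852).

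BMP4, the gene most like ALPG, had means in normoxia of 84.0 ± 0.682 CPM with siControl and 58.0 ± 8.89 CPM with siARNT, and in hypoxia of 104 ± 12.7 and 46.3 ± 3.49 CPM (SD, n = 3). FXYD3 had 6.49 ± 0.432 and 3.72 ± 1.2 CPM in normoxia and 8.75 ± 1.35 and 2.30 ± 0.527 CPM in hypoxia, siControl first. Both took the order of group means seen in ALPG, which follows largely from their choice by r with ALPG over these same libraries. Their range was smaller: from the highest to the lowest group mean ALPG ran from 23.5 to 1.83 CPM.

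Within each of the 4 groups, the library with the most ALPG was also the one with the highest GC slope (4 of 4 groups), and the same held for ALPP (4 of 4). A steep slope means that GC-rich genes stand high in a library, and both members are GC-rich, so this match is largely built in. The 2 genes also varied together (r = 0.976). The share of other GC-rich genes with the same match is not given here. The slopes in replicates A, B and C were -0.205, -0.036 and -0.172 in normoxia siControl and 0.002, 0.424 and 0 in normoxia siARNT. They were -0.078, 0.12 and -0.137 in hypoxia siControl and -0.176, 0.019 and 0.238 in hypoxia siARNT. With the GC offset the direction of ALPG and ALPP was the same in each comparison; for siARNT in hypoxia the log2 difference was -3.77 for ALPG and -2.82 for ALPP, and for hypoxia in siControl 0.87 and 0.79.

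Lists of related genes were read beside the members. The shares of all tested genes called are the background of each count below. With siARNT in hypoxia 14.4% were called higher and 14.7% lower. With hypoxia the shares were 10.4% and 14.9% in siControl and 2.21% and 1.89% in siARNT. GPI anchor synthesis, the pathway that makes the anchor of these enzymes, had 27 tested genes. With siARNT in normoxia 3 rose and 3 fell, shares near the 9.42% and 10.8% of all tested genes. The risers were GPAA1 (1.37, SE 0.387, edgeR adjusted p = 0.0308) and PIGT (0.54), subunits of the transamidase that attaches the anchor, and DPM2 (0.66). The others were PIGP (-0.44), PIGF (-0.39) and PIGC (-0.28). Their median log2 fold change was 0.09, against 0.01 for all tested genes. The rises depended on single libraries: 0 remained without replicate B of normoxia siARNT, and 0 without replicate A or replicate C of normoxia siControl, while 12 genes rose and 1 fell with the GC offset. With hypoxia in siControl 3 rose and 7 fell, PIGK the most (-0.64, edgeR adjusted p = 0.00137), with a median of -0.05 against 0.02. With hypoxia in siARNT 1 fell, PIGL (-0.55), with a median of -0.06 against -0.04, and the call was lost with a replicate block by well and with the 6 compared libraries alone. With siARNT in hypoxia 6 rose, MPPE1 the most (0.66), and 6 fell, PIGP the most (-0.48), with a median of 0.22 against 0.02; scaling by total counts instead gave 9 rises and 3 falls. With hypoxia in siControl 3 genes fell without replicate A of normoxia siControl, and 1 rose without replicate C of normoxia siControl or replicate A of hypoxia siControl, and without replicate A of hypoxia siControl or replicate B of hypoxia siARNT 3 genes fell with siARNT in hypoxia.

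Other GPI-anchored surface proteins were measured to see whether the anchor class moved with the members. Of 17 tested, 5 fell and 3 rose with siARNT in normoxia, beside 10.8% and 9.42% of all tested genes. The 4 largest falls were those of CEACAM5 (-1.26, SE 0.0663, edgeR adjusted p = 3.51e-07) and CEACAM6 (-0.49), adhesion proteins, and CD55 (-0.70) and CD59 (-0.46), inhibitors of complement. GPC1 (1.47), PLAUR (0.70) and EFNA1 (0.52) rose, and 0 of these 3 rises remained without replicate B of siARNT, or without replicate A or C of siControl, where 4 genes fell. The median was 0.26 against 0.01 for all tested genes. With siARNT in hypoxia 7 fell, among them CEACAM5 (-1.61), EFNA1 (-0.83), EFNA5 (-0.82) and CD55 (-0.74), and 1 rose, PRNP (0.37), with a median of -0.22 against 0.02. With hypoxia in siControl 5 rose, EFNA1 (1.5) and PLAUR (0.73) the most, and 1 fell, PRNP (-0.22), with a median of 0.25 against 0.02; 3 rises were called without replicate A or C of normoxia siControl or replicate B of hypoxia siControl. With hypoxia in siARNT edgeR called 0 genes (3 at an unadjusted p under 0.05, of which 1 was higher and 2 lower) and DESeq2 called 0, but 2 rose and 3 fell with the GC offset.

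Genes that handle phosphate and pyrophosphate, the substrates and products of these enzymes, had 11 tested members. With siARNT in normoxia the phosphate importer SLC20A1 (-0.65, edgeR adjusted p = 3.07e-05), ENPP4 (-0.47) and the mitochondrial pyrophosphatase PPA2 (-0.31) fell and the exporter XPR1 (0.25) rose, with a median of 0.01 against 0.01. The rise was not called without any 1 of the 3 siControl libraries, without replicate A of siARNT, with DESeq2 size factors or with the 6 compared libraries alone, whereas 5 genes rose and 2 fell with the GC offset. Without 1 siControl library, whichever it was, or without replicate B of siARNT, 1 fall was called. With siARNT in hypoxia SLC20A1 (-0.78) and ENPP4 (-0.58) fell, and XPR1 (0.56), the pyrophosphate transporter ANKH (0.46) and SLC20A2 (0.23) rose. With hypoxia in siControl PPA2 (-0.48) and PPA1 (-0.28) fell, and 1 gene fell without replicate A or C of normoxia siControl or replicate B of hypoxia siControl. In that comparison 0 genes rose by edgeR (2 at an unadjusted p under 0.05, and 1 called by DESeq2), but 5 rose and 3 fell with the GC offset, and 2 rose and 3 fell with the 6 compared libraries alone.

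Among genes of vitamin B6 metabolism, PDXK (0.58), which phosphorylates the vitamin, and AOX1 (0.49) rose with siARNT in normoxia, and 0 genes of the list were called without replicate B of siARNT or without replicate A or C of siControl. PLPBP rose with siARNT in hypoxia (0.24, edgeR adjusted p = 0.0148) and fell with hypoxia in siControl (-0.20, edgeR adjusted p = 0.0417). In the latter comparison 2 genes of the list fell, and 1 fell when each of the 6 libraries was left out in turn. The 3 zinc transporters that load secreted enzymes, SLC30A5, SLC30A6 and SLC30A7, gave 0 calls with siARNT at either oxygen level by edgeR. DESeq2 and an unadjusted p under 0.05 also gave 0. With the GC offset 3 of them rose with siARNT in normoxia and 2 in hypoxia. SLC30A5 fell with hypoxia in siControl (-0.27, edgeR adjusted p = 0.0214), a call lost without replicate A or C of normoxia siControl or replicate B or C of hypoxia siControl. All 3 transporters fell in that comparison with total count scaling, the replicate block by letter, the GC offset or the 6 compared libraries alone, and all 3 were lower at an unadjusted p under 0.05.

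AHR targets, the genes of the other pathway that needs ARNT, had 10 tested members. With siARNT in normoxia 8 of them fell and 0 rose by edgeR, beside 10.8% and 9.42% of all tested genes. The same counts of list genes came from DESeq2 and from an unadjusted p under 0.05. CYP1A1 fell from a mean of 5.09 CPM in normoxia siControl to 0.152 CPM in normoxia siARNT. Its fold is not given in any comparison, because in hypoxia siARNT its mean was 0.0303 CPM and its lowest library had 0.0189 CPM. Next to CYP1A1, the largest falls in normoxia were those of CYP1B1 (-3.61), TIPARP (-1.99), AHRR (-1.72) and ALDH1A3 (-1.41). In hypoxia 9 fell with siARNT. With hypoxia 4 of them rose in siControl and 5 fell in siARNT, where 2 genes fell without replicate B of hypoxia siARNT and 3 without replicate A of either siARNT group. In siARNT 0 fell with the 6 compared libraries alone, and 7 by DESeq2's own test. The medians were -1.28 for siARNT in normoxia, -1.62 for siARNT in hypoxia, 0.25 for hypoxia in siControl and -0.43 for hypoxia in siARNT.

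**Figure D4:**
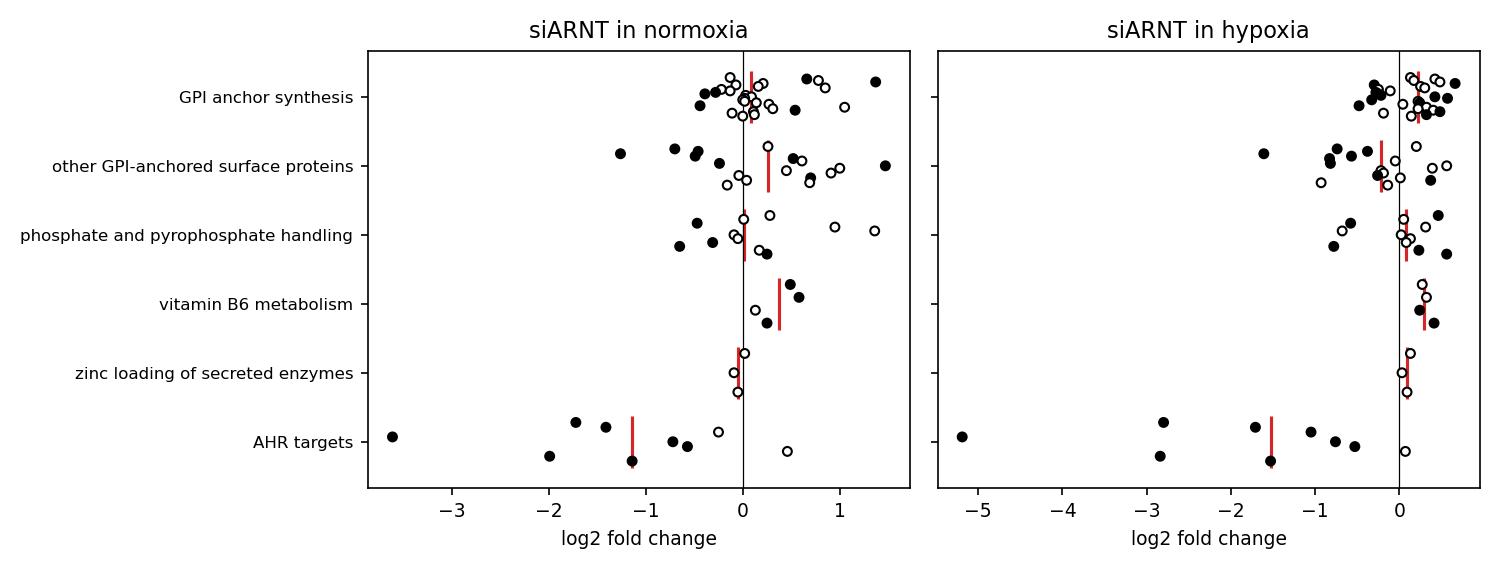
Log2 fold changes of the tested genes of 6 lists with siARNT in normoxia (left) and in hypoxia (right), on axes of different range; filled circles passed an adjusted p of 0.05 by edgeR, open circles did not, and red lines are medians of the genes drawn (CYP1A1 is not drawn). The AHR targets lie farthest to the left, and the GPI anchor genes lie on both sides of 0.

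Markers of the tissues that normally make these enzymes were read for the same libraries. Of 18 trophoblast markers, 3 were tested (GATA3, TFAP2A and KRT23), and the hormone and syncytial genes CGA, CGB3, CSH1, ERVW-1 and GCM1 held 2, 0, 0, 3 and 6 counts over all libraries. The summed level of the 18 markers was 62.2 to 66.0 CPM in normoxia with siControl and 50 to 52.6 CPM with siARNT. In hypoxia it was 69.3 to 72.3 and 46.9 to 49.0 CPM. Most of it was TFAP2A (mean 50.5 CPM over the 12 libraries), followed by KRT23 (mean 7.15 CPM). TFAP2A fell with siARNT in normoxia (-0.34, edgeR adjusted p = 0.00207) and rose with hypoxia in siControl (0.30, edgeR adjusted p = 0.00248). KRT23 also fell with siARNT in normoxia (-0.35), but it fell with hypoxia in siControl as well (-1.47), as did GATA3 (-0.70). With siARNT in hypoxia TFAP2A fell (-0.72), while GATA3 (1.18) and KRT23 (0.88) rose. With siARNT in normoxia 1 marker fell, in place of 2, without any 1 of the siControl libraries, without replicate A or C of siARNT, or with no filter on low counts. In siControl 1 fell with hypoxia without replicate A or B of normoxia siControl, without replicate A of hypoxia siControl, or with no filter. The part of these genes in the levels of ALPP and ALPG was not tested.

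Of 12 germ cell and naive pluripotency markers, 4 were tested, and NANOG, DPPA3, DDX4 and KLF17 held 7, 0, 10 and 0 counts. All 4 rose with hypoxia in siControl (2 with a replicate block by well), and 3 fell with siARNT in hypoxia. POU5F1 rose in the former (2.56, edgeR adjusted p = 2.54e-07) and fell in the latter (-2.31, edgeR adjusted p = 2.21e-07). Its reads can be shared with processed pseudogenes and its value is uncertain. PRDM1 changed by 0.41 and -1.58 in these comparisons and KLF4 by 0.56 and -0.39. With siARNT in normoxia PRDM1 fell (-0.85, edgeR adjusted p = 0.00174) and KLF4 rose (0.24), a rise lost with the GC offset. Of 12 enterocyte markers 8 were tested. CDH17 and VIL1 had means of 3900 and 277 CPM, and the intestinal regulator CDX2 a mean of 9.01 CPM, while CDX1, APOA4 and LCT held 0, 0 and 3 counts. Of the 8, 6 rose with hypoxia in siControl, CDX2 among them (0.57), beside 10.4% of all tested genes. In this comparison 0 markers fell, beside 14.9% of all tested genes, and DESeq2 also gave 0 falls. At an unadjusted p under 0.05, 7 markers rose and 0 fell. With siARNT in hypoxia 5 fell, CDX2 among them (-1.01), and 2 rose, SLC5A1 (1.17) and FABP2 (0.54), with 1 rise without replicate B or C of hypoxia siControl or replicate A or B of hypoxia siARNT. ALPI was thus almost silent in cells that express some genes of its home tissue and lack others. Of 9 bone, cartilage and liver markers RUNX2 and APOB rose with siARNT in normoxia (0.54 and 1.66), and SP7, IBSP and TTR held 3, 0 and 1 counts, beside 1 count of ALPL.

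Of 56092 splicing events deposited for these libraries, in 6 kinds, 0 lay in a member.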

How the data were processed

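RNA of 12 libraries of AsPC-1 cells was measured. The submitters' processing notes name the trimmer Trimmomatic, the aligner STAR 2.4.2a and the build GRCh38.p10. The deposited counts give each gene ID its number of reads, not normalized; their counter, annotation and use of strand are not given in the sources used here, apart from the name HTSeq in the file names. Lines that name no gene, 22.7 to 25.2% of reads, were left out. Symbols were found for 51996 of 57820 IDs.

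Counts were fitted with edgeR 4.0.16 (R 4.3.3) on all 12 libraries, with 1 mean per group, TMM scaling, the filterByExpr filter, robust quasi-likelihood dispersions, a prior count of 0.125 and Benjamini-Hochberg adjustment over 16999 genes. Calls need an adjusted p below 0.05. The fit was tested on simulated counts. Log2 CPM used a prior count of 2. No 2 replicates of a group agreed within counting error (chi-square over its degrees of freedom 3.95 to 79.5), so none was counted as a repeat. The members and lists were chosen with earlier results of these data known. Named genes are the members, the genes within 200 kb, the 5 most like each expressed member, and up to 4 called genes per list and comparison; marker genes named at or near 0 counts, and further called list genes, were picked after their values were seen. Alternatives were DESeq2 1.42.0 (size factors, test), total count scaling, no filter, a replicate block, a GC offset (smooth with span 0.3), the 6 compared libraries alone, ALPP and ALPG summed, and each library left out. Some results are not reported here.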

Additional observations from a re-analysis of the deposited data

How the results depend on the processing

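Of 166 alternative values of ALPG and ALPP over the 5 comparisons, 166 kept their direction and 155 also kept their side of the threshold or stayed within 1 SD. Only siARNT in normoxia, with 15 alternatives per gene, has a threshold. The other comparisons hold or share libraries with the contrast that chose the members, so for them this tally is a description. The fit of ALPP and ALPG summed counts once for each gene. For siARNT in normoxia the call of ALPG was lost with no filter on low counts (-1.46, adjusted p = 0.0875 by edgeR), with ALPP and ALPG summed (-0.91, adjusted p = 0.0666) and when 1 of 5 libraries was left out; left-out libraries gave -1.91 to -1.29. DESeq2 gave -1.48 (adjusted p = 0.00484). ALPP passed with the GC offset (-1.08) and with the replicate block and GC offset together (-1.08), and ran from -0.88 to -0.42 with libraries left out. With the replicate block and GC offset the difference between the oxygen responses was -1.67 for ALPG and -1.72 for ALPP.

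The replicate letters were not shown to pair the libraries: deviations of same-lettered libraries correlated between -0.43 and 0.52, and not every library correlated best with its own letter. With the letter as a replicate block ALPG was at -1.55 (adjusted p = 0.00589) and ALPP at -0.60 (adjusted p = 0.119) for siARNT in normoxia, so neither call changed.

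Counts of called genes moved by over 1.5 times in these cases. For siARNT in normoxia 3431 became 5535 with the replicate block and GC offset, 1604, 2157 and 1571 without replicates A, B and C of siControl, and 2187 without replicate B of siARNT. For hypoxia in siControl 4299 became 6576 with the GC offset and 6874 with the block added. For hypoxia in siARNT 696 became 136 with a replicate block by well, 3078 with the GC offset, 3415 with the block added, 22 with the 6 compared libraries alone, and 129 to 454 with a library left out. For siARNT in hypoxia 4948 became 7572 with the replicate block and GC offset. The cause was not tested. Counts of called list genes and the ratio of ALPG to ALPP were added to the alternatives after the data had been seen. Depth limits ALPI and ALPL, whose counts lie at or near the floor.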
